A study of Mus musculus with 20 samples.

Results

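The 8 second-round hippocampal libraries of this series were ranked by how much RNA they held from Mcm2, Mcm3, Mcm4, Mcm5, Mcm6 and Mcm7, and the 4 highest were set against the 4 lowest. They are 8 of the 20 libraries in all. The ranking value, called the Mcm score here, is the mean of log2(RPKM + 1) over the 6 genes, where RPKM is the count of reads scaled by transcript length and by the library's mapped reads. The sets were therefore chosen by their measured expression. Differences between them, counts of genes whose values did not overlap and rank correlations with the score are given below as descriptions, with no test.

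The libraries come from neurospheres, floating colonies that neural stem and progenitor cells form in medium with EGF and FGF. Tissue was taken from adult C57BL/6 mice of 8 to 12 weeks, either Egfl7-/- (knockout) or wild type, and the spheres received no treatment beyond 20 ng/ml EGF and FGF. Egfl7 encodes a secreted protein of the extracellular matrix that is best known from blood vessels. The second-round hippocampal spheres (spheres2 in the labels, from male mice, 4 knockout and 4 wild type) were grown for 5 days. The remaining 12 libraries are first-round spheres in groups of 3. The hippocampal ones, grown for 5 days, came from knockout males and wild-type females, and those of the subventricular zone (SVZ), grown for 3 days, from males of both genotypes. Each library carries 1 mouse number. Hippocampal wild-type numbers used in both rounds are labelled female in the first and male in the second, so by their labels those are different animals. For other numbers used in both rounds the labels do not state whether the animal is the same. The knockout is not limited to a cell type in the labels, and each sphere culture is a mixture of cells, so fewer cells of a type and less RNA per cell cannot be told apart in any value below.

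Mcm2 to Mcm7 encode the 6 subunits of the ring-shaped helicase that is loaded on replication origins in G1 and unwinds DNA in S phase. Their genes are transcribed under E2F factors when a cell passes from G1 to S phase, and their RNA is low in cells that have left the cycle. In the adult hippocampus most neural stem cells are out of the cycle and express genes shared with astrocytes, and in culture EGF and FGF drive progenitors to divide.

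In rank order the libraries were wild type 2 (Mcm score 6.25), knockout 7 (6.01), knockout 1 (5.93) and knockout 4 (4.01), which form the higher-Mcm set, then knockout 8 (3.87), wild type 6 (3.81), wild type 5 (2.99) and wild type 3 (2.96), which form the lower-Mcm set. The values of a gene in the text follow this order. The scores fell into 3 tiers: ranks 1 to 3 lay between 5.93 and 6.25, ranks 4 to 6 between 3.81 and 4.01, and ranks 7 and 8 at 2.96 and 2.99. The largest gap, 1.914, lay between ranks 3 and 4. Only 0.143 separated knockout 4, the last library inside the higher-Mcm set, from knockout 8, the first outside it. Knockout 4 thus resembled the lower-Mcm libraries in its score. The main counts and those of several lists are also given without it or with it moved to the lower set. Counts given with it alone may turn on it as well.

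All 8 libraries were checked against their labels and for other cells first. Egfl7 had no value in the 4 second-round knockout libraries (an empty cell, read as 0 throughout) and measured 1.16, 1.05, 1.59 and 0.996 RPKM in wild type 2, 3, 5 and 6. Mapped reads in megareads (M), worked out from the smallest steps of the RPKM values, were 17.77 to 31.21 M in the higher-Mcm set and 20.35 to 29.2 M in the lower-Mcm set, so the sets overlapped in depth. Mitochondrial ribosomal RNA took 1.54 to 2.92% of the reads in the higher-Mcm set and 2.21 to 3.74% in the lower-Mcm set. Of 20 microglia and macrophage markers, 8 had no value in any of the 8 libraries (among them Cx3cr1, C1qa, Tyrobp and Trem2), and their summed level was 31.4 to 51.2 RPKM in the higher-Mcm and 35.8 to 57.6 RPKM in the lower-Mcm set. Of 19 endothelial markers, Cdh5 and Sox17 had none, with sums of 17.5 to 19.6 and 14 to 29 RPKM. Of 18 pericyte and fibroblast markers, Dcn and Lum had none, with sums of 14.1 to 38 and 26.6 to 50.6 RPKM, led by Pdgfra, which oligodendrocyte precursors also express. The part of these cells in the results was not tested. The neural progenitor genes Sox2 (214, 183, 242 and 308 RPKM in the higher-Mcm libraries and 203, 266, 320 and 268 RPKM in the lower-Mcm libraries) and Egfr (163 to 340 RPKM) were present in every library of both sets.

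All 6 Mcm genes were lower in ranks 4 to 8 than in ranks 1 to 3. Mcm5 (chr8:75109509-75128439, GRCm38) had the widest range, 103.2, 81.4, 83.4 and 13.3 RPKM in the higher-Mcm and 15.1, 12.5, 3.77 and 3.63 RPKM in the lower-Mcm libraries, so that wild type 2 held 28.4 times the level of wild type 3. Mcm7 (chr5:138164589-138171862) had the narrowest, 47.8, 42.8, 42.7 and 17.1 RPKM against 14.8, 15.4, 14.7 and 15.1 RPKM, a ratio of 3.16 between wild type 2 and wild type 3. Mcm7 overlapped between the middle and the lowest tier, whereas Mcm3 was 9.17 to 10.3 RPKM in ranks 4 to 6 and 3.27 and 4.10 RPKM in ranks 7 and 8. Within the last pair Mcm6 was higher in wild type 5 (8.00 against 3.88 RPKM) and Mcm2 higher in wild type 3 (8.22 against 5.90 RPKM).

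**Figure D1:**
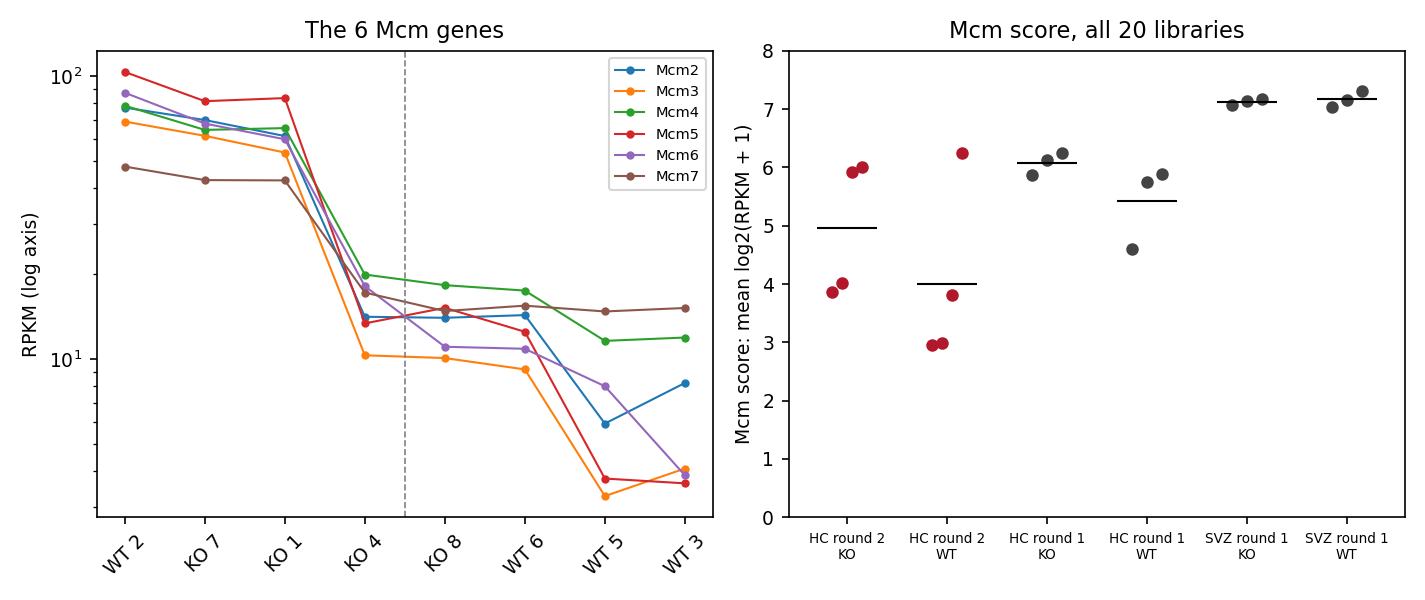
Left, RPKM (log axis) of each Mcm gene in the 8 second-round hippocampal libraries, ordered by Mcm score, with the split between the sets dashed; KO is Egfl7 knockout and WT wild type. Right, the Mcm score of each of the 20 libraries (points) with group means (bars; HC is hippocampus): the second-round libraries reach from 2.96 to 6.25, while the first-round hippocampal ones lie between 4.60 and 6.25 and the SVZ ones between 7.04 and 7.31.

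The names proliferative and quiescent, under which the sets were proposed, were checked against marker genes, which were divided on quiescence of the lower set. Of 33 genes listed for quiescent stem cells 30 had a higher mean in the lower-Mcm libraries and 3 a lower one. Among 24 genes of cell-cycle arrest these numbers were 17 and 7. Mki67, a protein of dividing cells, measured 68.5, 56.2, 52.6 and 21.1 RPKM in the higher-Mcm libraries and 12.2, 15, 1.03 and 5.63 RPKM in the lower-Mcm libraries. The lower-Mcm libraries still held cycling-cell RNA, and knockout 8 and wild type 6 kept it well above wild type 5. The CDK inhibitor genes Cdkn1a (45.3, 83.5, 62.3 and 65.5 RPKM against 69.7, 51.1, 47 and 34 RPKM) and Cdkn1b (110, 83.6, 105 and 122 RPKM against 100, 111, 148 and 123 RPKM) overlapped between the sets. The sets are therefore called higher-Mcm and lower-Mcm, not proliferative and quiescent. These genes and Sox2, Egfr, Ccnd1, Ccnd2, Cdkn1c, Gfap, Hes5, Id4, Vcam1, Aldoc, Pcna, Cdk1, Top2a and Cdc20 were chosen for the text after their values were seen.

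Some promoters of the genes that followed the score carried letters of known cell-cycle elements, and those of 6 genes are shown as examples, picked for having or lacking them. Each window runs from 250 bases before to 50 after a transcription start (RefSeq, GRCm38.p6). Capitals mark 4 motifs, searched on both strands: the E2F sites TTTGGCGC and TTTCCCGC, the cell cycle homology region TTTGAA (CHR), and the CCAAT box. None of these strings contains another, though neighbouring matches may share letters at their ends. Mcm3 (chr1:20820263-20820562, minus strand), Mcm5 (chr8:75109259-75109558, plus strand) and Mcm6 (chr1:128359656-128359955, minus strand) are shown for their E2F matches, Cdk1 (chr10:69352863-69353162, minus strand) and Top2a (chr11:99024140-99024439, minus strand) for CHR with CCAAT, and Gja1 (chr10:56377050-56377349, plus strand), which was low where the score was high, holds none of the 4.
Mcm3: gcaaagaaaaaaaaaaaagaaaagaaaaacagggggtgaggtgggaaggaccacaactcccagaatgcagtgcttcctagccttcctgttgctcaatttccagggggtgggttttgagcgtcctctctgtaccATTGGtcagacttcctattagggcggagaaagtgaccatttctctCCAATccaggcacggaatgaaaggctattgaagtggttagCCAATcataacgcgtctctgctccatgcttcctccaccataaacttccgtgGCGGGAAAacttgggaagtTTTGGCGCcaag
Mcm5: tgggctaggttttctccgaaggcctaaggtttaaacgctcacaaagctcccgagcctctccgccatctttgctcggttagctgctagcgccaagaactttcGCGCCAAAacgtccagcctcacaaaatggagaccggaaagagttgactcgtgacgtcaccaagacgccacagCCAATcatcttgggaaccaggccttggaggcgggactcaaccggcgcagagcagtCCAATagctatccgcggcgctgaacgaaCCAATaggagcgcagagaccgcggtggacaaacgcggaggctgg
Mcm6: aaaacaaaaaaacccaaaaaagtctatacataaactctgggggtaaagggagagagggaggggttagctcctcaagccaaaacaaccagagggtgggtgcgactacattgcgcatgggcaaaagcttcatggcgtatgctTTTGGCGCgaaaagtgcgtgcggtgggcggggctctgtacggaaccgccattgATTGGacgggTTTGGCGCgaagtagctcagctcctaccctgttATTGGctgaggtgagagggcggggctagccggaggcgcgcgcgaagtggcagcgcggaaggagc
Cdk1: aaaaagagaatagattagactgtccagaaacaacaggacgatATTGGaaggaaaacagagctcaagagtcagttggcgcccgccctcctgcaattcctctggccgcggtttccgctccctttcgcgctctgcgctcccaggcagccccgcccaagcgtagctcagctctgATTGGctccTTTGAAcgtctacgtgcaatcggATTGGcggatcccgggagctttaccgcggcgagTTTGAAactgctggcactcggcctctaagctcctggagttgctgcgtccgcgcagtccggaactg
Top2a: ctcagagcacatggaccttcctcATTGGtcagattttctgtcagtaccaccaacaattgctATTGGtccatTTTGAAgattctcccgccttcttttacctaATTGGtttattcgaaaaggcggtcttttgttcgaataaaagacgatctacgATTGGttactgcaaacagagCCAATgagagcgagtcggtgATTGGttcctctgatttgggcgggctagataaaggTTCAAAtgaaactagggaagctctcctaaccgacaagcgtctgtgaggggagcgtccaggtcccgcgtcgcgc
Gja1: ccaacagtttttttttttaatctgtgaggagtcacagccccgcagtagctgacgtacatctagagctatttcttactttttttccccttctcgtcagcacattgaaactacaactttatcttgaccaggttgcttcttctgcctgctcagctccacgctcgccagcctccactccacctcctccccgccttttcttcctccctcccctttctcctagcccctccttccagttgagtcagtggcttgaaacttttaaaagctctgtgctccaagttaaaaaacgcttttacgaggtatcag

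An E2F match was found in 4 of the 6 promoter windows of the Mcm genes in the table (66.7%, from 5 genes with an entry) and in 20% of the 45 windows of a list of 45 DNA replication genes, against 2.84% of the 13127 windows of all genes kept for the comparison and 1.56% of the 32851 windows in the RefSeq table. CHR matches were found in 65.9% of the 44 windows of a list of 48 mitosis genes and CHR together with CCAAT in 56.8%, against 12% and 5.1% of the windows of all kept genes (17.9% and 6.95% of the whole table). Replication-dependent histone genes held CCAAT in 21 of 22 windows (95.5%), against 38.5% of the windows of all kept genes. Most windows of the genes that were higher without overlap held neither E2F nor CHR letters, with an E2F match in 5.1% and a CHR match in 20.4%, against 1.51% and 8.28% for the lower genes. No E2F match was found in the windows of Mcm2, Rrm2 or Pcna and no CHR match in that of Ccnb1, whereas Apoe, which was low where the score was high, has windows with a CHR match. A match describes the letters of a window and is not a bound site.

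Of 36724 genes in the table, 13609 had at least 1 RPKM in 4 or more of the 8 libraries, with the 6 Mcm genes left out, and 20 of them were kept only through the higher-Mcm and 14 only through the lower-Mcm libraries. In 1360 genes (9.99%) every higher-Mcm library lay above every lower-Mcm library, and in 639 (4.70%) every one lay below. After scaling by median-of-ratios factors the split was 1084 higher and 959 lower. The median difference of mean log2(RPKM + 1), higher-Mcm minus lower-Mcm set, was 0.049 over all kept genes, 579 genes exceeded 1 and 256 were below -1. Spearman's rho with the score over the 8 libraries was 0.9 or more for 606 genes (4.45%) and -0.9 or less for 398 (2.92%). These counts depended on knockout 4: setting the 3 highest libraries against the other 5, a split at the largest gap that was chosen after seeing the data, gave 3174 genes higher and 1835 lower without overlap, and leaving knockout 4 out gave 3467 and 2034. In 759 of the 1360 higher genes (55.8%) knockout 4 was nearer to the mean of ranks 5 to 8 than to that of ranks 1 to 3. The same held for 319 of the 639 lower genes (49.9%). Leaving out wild type 6 gave 2181 and 1026 genes, and leaving out knockout 8 moved the lower genes to 1018. Because the contrast is the one the libraries were sorted by, the shares of a list below are read against these percentages as descriptions only. List counts under another split, or without a library, are read against the counts given here for all 13609 genes.

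**Figure D2:**
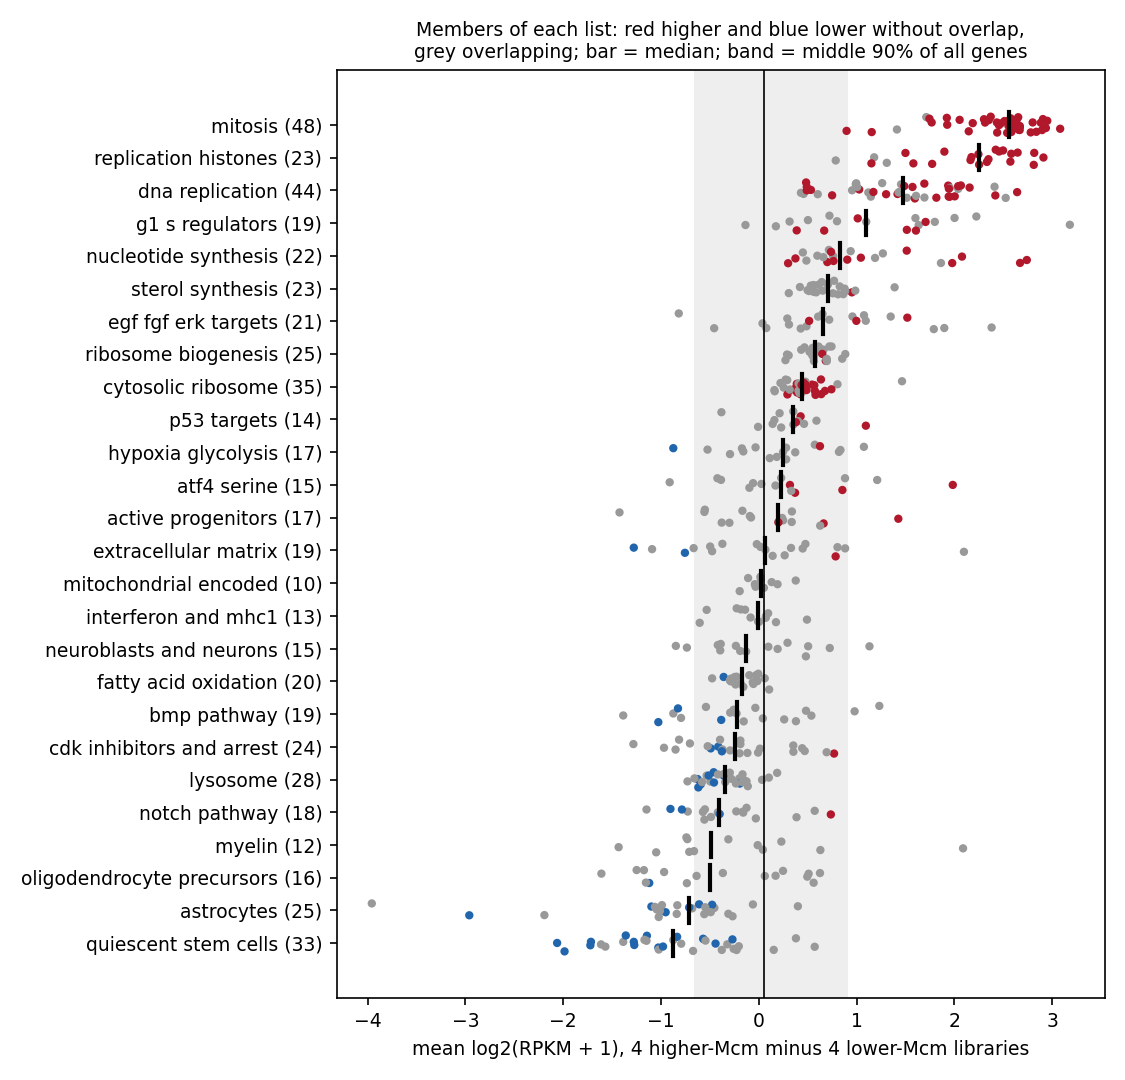
Difference of mean log2(RPKM + 1) between the 4 higher-Mcm and 4 lower-Mcm libraries for the members of 26 gene lists (number kept in brackets; lists with at least 10 kept members), with the median of each list as a black bar, the median of all genes (0.049) as a line and their middle 90% as a band. Mitosis, replication-dependent histone and DNA replication genes lie to the right, with medians of 2.56, 2.25 and 1.47, and the stem cell and astrocyte lists to the left.

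Genes of DNA replication were higher together. All 44 kept members of a 45-gene list had a positive difference (median 1.47), and 24 were higher without overlap; with the 3 highest libraries against the other 5 all 44 were. Uhrf1, which keeps DNA methylation on the new strand, measured 46.2, 40.7, 33.1 and 7.18 RPKM in the higher-Mcm libraries and 5.73, 6.1, 1.01 and 2.76 RPKM in the lower-Mcm libraries, a difference of 2.64 (SD 1.17 within the higher-Mcm and 0.85 within the lower-Mcm set, n = 4 each). Mcm10, which helps to start the replication helicase, measured 17.9, 16.5, 14.2 and 2 RPKM in the higher-Mcm libraries and 1.91, 1.74, 0.354 and 0.702 RPKM in the lower-Mcm libraries. Clspn, the claspin adaptor of the replication checkpoint, measured 16.3, 12.8, 13.9 and 2.7 RPKM in the higher-Mcm libraries and 2.41, 1.71, 0.715 and 1.1 RPKM in the lower-Mcm libraries. In each of the 3 genes knockout 4 stood just above knockout 8 or wild type 6 and far below the 3 highest libraries. Pcna, the sliding clamp of the replication fork, had the same 3 tiers less widely spaced (120, 100, 102 and 33.5 RPKM against 29.1, 30.8, 24.2 and 20.6 RPKM).

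Enzymes that make nucleotides followed. All 22 members were positive (median 0.83) and 12 were higher without overlap, 21 with the split of 3 against 5. Rrm2, the S-phase subunit of ribonucleotide reductase, measured 105, 86.5, 79.7 and 16.6 RPKM in the higher-Mcm libraries and 14.7, 11.7, 4.7 and 4.8 RPKM in the lower-Mcm libraries, 6.68-fold higher on the log2(RPKM + 1) scale. Tk1, the thymidine kinase of S phase, measured 26.4, 24.7, 22 and 4.14 RPKM in the higher-Mcm libraries and 2.6, 3.13, 0.541 and 1.2 RPKM in the lower-Mcm libraries, and Shmt1, a cytosolic enzyme of one-carbon metabolism, 37.6, 35.4, 28.8 and 8.2 RPKM in the higher-Mcm libraries and 6.71, 5.76, 3.41 and 4.27 RPKM in the lower-Mcm libraries. Ranks 7 and 8 did not differ in Rrm2 (4.7 and 4.8 RPKM) although wild type 5 was the lower of the pair in Tk1.

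Regulators of the step from G1 to S phase were more mixed, with 18 of 19 positive (median 1.1) and 6 higher without overlap. The repressor E2f8 (9.3, 8.32, 6.86 and 2.2 RPKM against 1.14, 1.32, 0.835 and 1.34 RPKM), the CDK-binding protein Cks1b (44.7, 35.2, 31.5 and 15.8 RPKM against 9.42, 13.4, 6.42 and 8.42 RPKM) and the Rb relative Rbl1 (27.9, 27.1, 23.1 and 9.56 RPKM against 7.5, 8.8, 5.29 and 4.92 RPKM) did not overlap. Cyclin D1, which carries growth factor signals to CDK4 and CDK6, had a larger difference than all of these, 3.18 on the log2 scale, but overlapped between the sets: Ccnd1 measured 737, 824, 831 and 119 RPKM in the higher-Mcm libraries and 151, 126, 15.9 and 26.6 RPKM in the lower-Mcm libraries. Its 3 tiers were 737 to 831, 119 to 151 and 15.9 to 26.6 RPKM, with knockout 4 below knockout 8 and wild type 6. Ccnd2 had the same tiers at 269, 286, 359 and 86.7 RPKM against 106, 92.2, 32.7 and 48.4 RPKM. Leaving out knockout 4 or moving it to the lower set brought the members of this list without overlap from 6 to 16. Over all 13609 kept genes the same changes brought the higher count from 1360 to 3467 or 3174.

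Mitosis genes had the widest difference of all lists examined. All 48 members were positive (median 2.56) and 46 were higher without overlap. Ccna2, cyclin A2, measured 154, 134, 130 and 36.3 RPKM in the higher-Mcm libraries and 22.8, 28.8, 1.21 and 11.7 RPKM in the lower-Mcm libraries, a difference of 3.08 (SD 0.96 within the higher-Mcm and 1.70 within the lower-Mcm set, n = 4 each). Nusap1, a spindle microtubule protein, measured 111, 85.9, 93.5 and 33.7 RPKM in the higher-Mcm libraries and 17.6, 19.2, 1.21 and 9.74 RPKM in the lower-Mcm libraries, and Ube2c, the ubiquitin-conjugating enzyme of the anaphase-promoting complex, 114, 84.4, 91.3 and 23.3 RPKM in the higher-Mcm libraries and 17.2, 22.5, 0.761 and 7.56 RPKM in the lower-Mcm libraries. The kinase Cdk1 (176, 155, 137 and 41.3 RPKM against 26.4, 26, 4.37 and 12.7 RPKM), the topoisomerase Top2a (221, 177, 176 and 50.2 RPKM against 31.1, 37.7, 4.05 and 17.5 RPKM) and the anaphase activator Cdc20 (78.4, 70, 68.5 and 22.2 RPKM against 13.1, 18.4, 1.46 and 7.3 RPKM) showed the same order.

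The mitosis genes also separated libraries that the Mcm score did not. Wild type 5 and wild type 3 had scores of 2.99 and 2.96, yet the mean log2(RPKM + 1) of the mitosis list was 1.27 in wild type 5 and 2.6 in wild type 3. Of the 48 genes 46 were lower in wild type 5 (median difference -1.44), and the same number had their lowest value of the 8 libraries there. Of the 44 DNA replication genes 28 were lower in wild type 5, with a median difference of -0.04. Without wild type 5 the median difference of the mitosis list between the sets fell from 2.56 to 2.01, and 46 of its members were still higher without overlap. With a single library at this level there is no replicate of it.

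**Figure D3:**
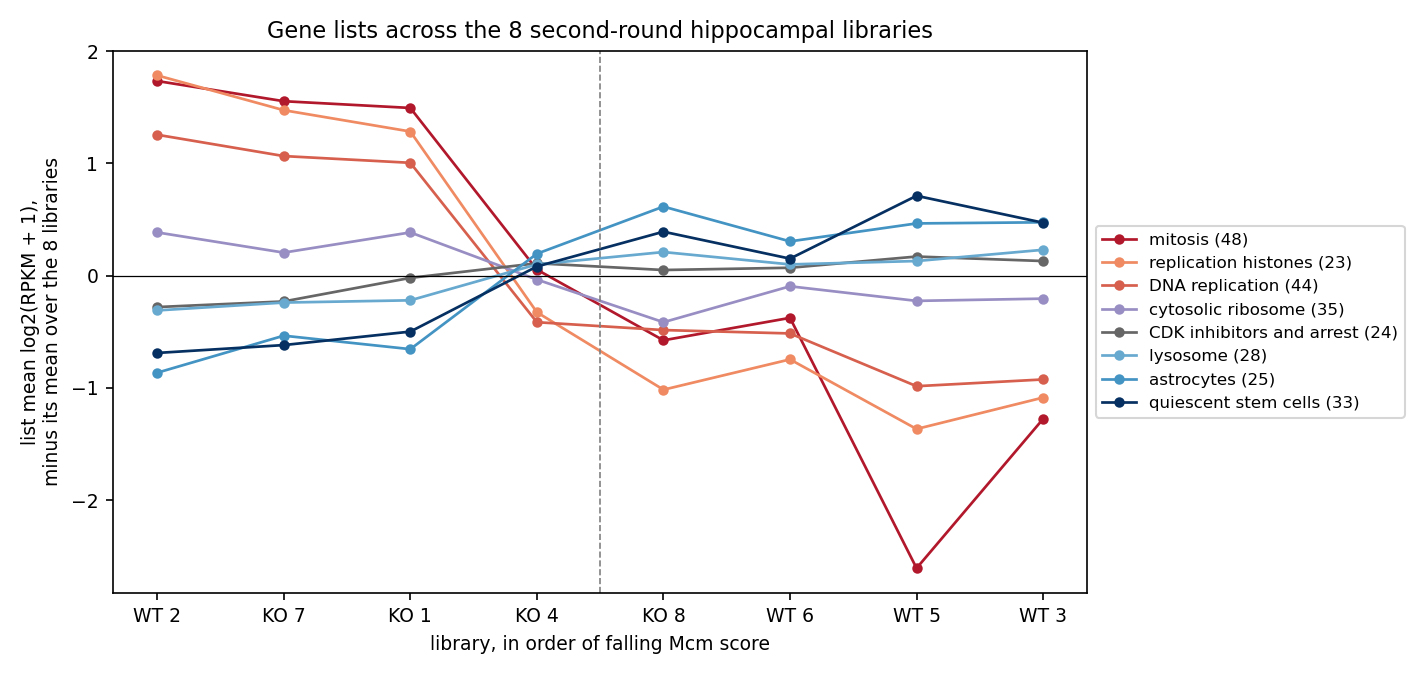
Mean log2(RPKM + 1) of 8 gene lists (kept members in brackets) in each library minus the mean of that list over the 8 libraries, with libraries in order of falling Mcm score and the split dashed. The cell-cycle lists step down after rank 3, the mitosis list drops again in WT 5, and the stem cell, astrocyte and lysosome lists lie above their mean from KO 4 onward.

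Replication-dependent histone genes, whose RNA is made in S phase and ends in a stem-loop in place of a poly(A) tail, were higher in the higher-Mcm set in all 23 kept members (median 2.25), 20 of them without overlap. Hist1h3c measured 607, 493, 419 and 103 RPKM in the higher-Mcm libraries and 57.2, 69, 23.7 and 39.8 RPKM in the lower-Mcm libraries. The linker histone Hist1h1b measured 439, 355, 305 and 72.1 RPKM in the higher-Mcm libraries and 56.4, 52.6, 15.4 and 27 RPKM in the lower-Mcm libraries, and Hist1h2ab 344, 244, 233 and 58.9 RPKM in the higher-Mcm libraries and 28.6, 34.1, 15.6 and 27.2 RPKM in the lower-Mcm libraries. These genes have near-identical copies among which the authors' counting could divide reads, so single members are uncertain. In the 12 first-round libraries the same 3 genes reached at most 0.58, 1.02 and 1.28 RPKM, and only 5 of the 23 had enough signal there to be fitted. Mitochondrial ribosomal RNA likewise took 0.055 to 0.088% of the reads in the first round. The rounds thus differ in which RNA the libraries held, and levels are not compared between rounds here.

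Genes of cell-cycle arrest differed less. Of 24 kept members 17 had a negative difference (median -0.25), 3 were lower and 1 was higher without overlap. Without knockout 4, 9 were lower and 2 higher. The pocket proteins Rbl2 (19.6, 19.4, 22.8 and 27.9 RPKM against 32.3, 31.1, 32.4 and 30.4 RPKM) and Rb1 (29.3, 24.7, 29.6 and 35.5 RPKM against 41.2, 37.7, 44.5 and 35.8 RPKM), which hold E2F targets down, and the forkhead factor Foxo4 (11.3, 10.8, 13.5 and 15 RPKM against 15.1, 16.9, 18 and 16.4 RPKM) were lower in the higher-Mcm set. Cdkn2c, the CDK4 and CDK6 inhibitor p18, was higher there, at 90.7, 92.7, 68.7 and 65.5 RPKM against 38, 43.7, 56.9 and 45.8 RPKM. Cdkn1c, the inhibitor p57, was high in the 2 lowest libraries only, with 3.97, 1.99, 4.61 and 3.68 RPKM against 1.5, 4.43, 35.4 and 10.6 RPKM, while knockout 8 was below all 4 higher-Mcm libraries and wild type 6 within their range.

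Genes listed for quiescent neural stem cells were higher where the score was low: 30 of 33 kept members had a negative difference (median -0.87). Of these genes 14 were lower in the higher-Mcm set without overlap and none was higher. Without knockout 4, 25 were lower without overlap, against 2034 of all 13609 kept genes. Apoe, the main lipid carrier of astroglia, measured 1664, 2293, 2314 and 8380 RPKM in the higher-Mcm libraries and 11540, 10133, 15285 and 12581 RPKM in the lower-Mcm libraries, a difference of -2.06 (SD 1.03 within the higher-Mcm and 0.25 within the lower-Mcm set, n = 4 each). Gja1, the gap junction protein connexin 43, measured 53.6, 117, 62.9 and 211 RPKM in the higher-Mcm libraries and 395, 240, 582 and 383 RPKM in the lower-Mcm libraries, and Mt2, a metal-binding protein, 165, 226, 356 and 632 RPKM in the higher-Mcm libraries and 1135, 678, 1492 and 870 RPKM in the lower-Mcm libraries. Vcam1, an adhesion molecule of stem cells (42.3, 36.7, 49.1 and 67.7 RPKM against 88.4, 101, 116 and 125 RPKM), and Aldoc, a glycolytic enzyme of astrocytes (557, 733, 582 and 1356 RPKM against 1717, 1601, 2044 and 1964 RPKM), were lower without overlap as well. Hes5 (39.8, 24.6, 61.2 and 143 RPKM against 69.4, 137, 183 and 125 RPKM) and Id4 (7.41, 3.24, 9.75 and 15.2 RPKM against 10.4, 13.5, 42.8 and 38.8 RPKM) overlapped, because knockout 8 and wild type 6 lay below knockout 4 in both genes. The list was not uniform: Hopx had a difference of 0.15 and the glutamate transporter Slc1a3 one of -0.20, a pair also picked after their values were seen.

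Astrocyte markers gave the same picture with more variation between libraries. Of 25 members 24 were negative (median -0.71), 6 of them without overlap and 18 with the split of 3 against 5. Over all 13609 kept genes these splits gave 639 (4.7%) and 1835 lower. Aqp4, the water channel of astrocytes, measured 17.5, 42.8, 18.4 and 111 RPKM in the higher-Mcm libraries and 417, 245, 268 and 233 RPKM in the lower-Mcm libraries, a difference of -2.96 (SD 1.22 within the higher-Mcm and 0.38 within the lower-Mcm set, n = 4 each). The glutamate transporter Slc1a2 (128, 182, 112 and 203 RPKM against 400, 363, 267 and 289 RPKM) and the glycogen regulator Ppp1r3c (41.8, 61.1, 39.1 and 88.7 RPKM against 118, 116, 98.5 and 95.4 RPKM) did not overlap either. Gfap, the astrocyte intermediate filament, had a larger difference, -3.96, but no order within the lower set: it measured 1.32, 2.47, 9.96 and 84.9 RPKM in the higher-Mcm libraries and 328, 20.8, 536 and 114 RPKM in the lower-Mcm libraries, and wild type 6 lay below knockout 4. Many of these genes are on more than one list, and astroglia and quiescent stem cells share them.

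Markers of other lineages moved less than the stem cell and astrocyte lists. Median differences were -0.50 for oligodendrocyte precursor, -0.49 for myelin, -0.13 for neuronal and -0.06 for ependymal genes. Of 16 kept oligodendrocyte precursor genes Sox10 alone was lower without overlap (2.84, 2.5, 4.68 and 3.48 RPKM against 5.03, 6.9, 9.35 and 14.5 RPKM), and none of 12 myelin, 15 neuronal or 6 ependymal genes was without overlap in either direction. Among 17 kept genes of active progenitors 9 were positive and 8 negative, and 3 were higher without overlap. Nes, the intermediate filament nestin of neural progenitors, was one of these, with 287, 240, 268 and 160 RPKM in the higher-Mcm libraries and 113, 126, 59.1 and 65.2 RPKM in the lower-Mcm libraries.

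**Figure D4:**
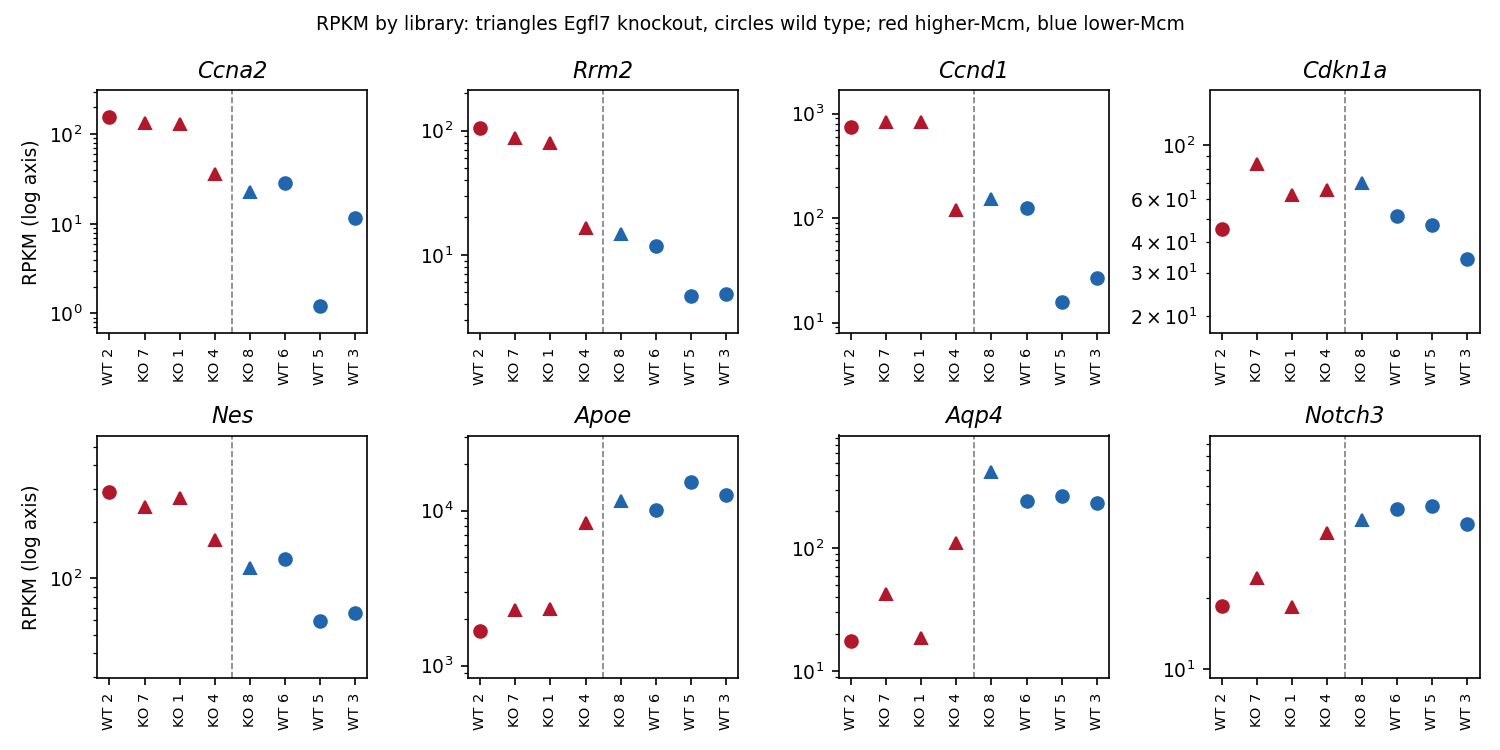
RPKM (log axis, different for each gene) of 8 genes in the 8 libraries, in order of falling Mcm score; triangles are Egfl7 knockout and circles wild type, red the higher-Mcm and blue the lower-Mcm set. Ccna2, Rrm2 and Ccnd1 step down after rank 3 and again at rank 7, Nes declines, Apoe, Aqp4 and Notch3 are lowest in ranks 1 to 3, and Cdkn1a overlaps.

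Signalling genes were compared by role. Of 18 kept Notch pathway genes 15 had a negative difference (median -0.41); 3 were lower and 1 was higher without overlap. The ligand Jag1 was the higher one (13.1, 10.5, 10.7 and 11.9 RPKM against 7.79, 4.89, 6.53 and 7.12 RPKM), while the receptor Notch3 (18.6, 24.4, 18.3 and 38 RPKM against 43.1, 47.7, 49.1 and 41.3 RPKM) and the Notch target Hey1 (38.4, 34.5, 38.7 and 59.9 RPKM against 70.6, 82.4, 70.4 and 69 RPKM) were lower in the higher-Mcm set. Centring the values within genotype and ranking the libraries anew left 1 Notch gene lower and none higher. This also puts wild type 6 in the place of knockout 4 in the higher set. Leaving knockout 4 out, without centring, gave 8 Notch genes lower and 1 higher. Of 19 BMP pathway genes 12 were negative (median -0.23) and 3 were lower without overlap: the target Id2 (74.7, 45.3, 95.9 and 87.5 RPKM against 112, 110, 242 and 170 RPKM), the extracellular inhibitor Nog (1.4, 1.29, 1.51 and 1.38 RPKM against 1.55, 2.94, 5.19 and 4.22 RPKM) and the receptor Bmpr1a (81.9, 65.4, 81.2 and 93.4 RPKM against 95.6, 99.7, 111 and 113 RPKM). The BMP median was -0.0015 under the same centring and change of sets.

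Targets of ERK, the kinase cascade that EGF and FGF drive, were mostly higher in the higher-Mcm set. Of 21 kept genes 19 were positive (median 0.65) and 3 were higher without overlap, 14 with the split of 3 against 5. Over all 13609 kept genes these splits gave 1360 (9.99%) and 3174 higher. The phosphatase Dusp4, a feedback inhibitor of the cascade, measured 8.88, 6.49, 9.58 and 3.42 RPKM in the higher-Mcm libraries and 2.83, 2.2, 0.658 and 1.53 RPKM in the lower-Mcm libraries. Egr2, an immediate early factor, measured 5.25, 4.62, 2.63 and 1.68 RPKM in the higher-Mcm libraries and 1.12, 1.21, 0.727 and 1.65 RPKM in the lower-Mcm libraries, and Fosl1, a partner of Jun, 1.62, 1.57, 1.6 and 1.51 RPKM in the higher-Mcm libraries and 0.837, 1.18, 0.5 and 0.756 RPKM in the lower-Mcm libraries.

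Genes of ribosomes and sterol synthesis had differences of 1 sign throughout each list. All 35 cytosolic ribosomal protein genes were positive (median 0.44) and 21 were higher without overlap; with values centred within genotype and wild type 6 in place of knockout 4, 9 were. Rpsa measured 419, 363, 405 and 264 RPKM in the higher-Mcm libraries and 191, 261, 199 and 207 RPKM in the lower-Mcm libraries, and Rplp1 725, 773, 691 and 584 RPKM in the higher-Mcm libraries and 423, 446, 441 and 461 RPKM in the lower-Mcm libraries. Ribosomal protein genes have many processed copies, so their values are uncertain. All 25 ribosome biogenesis genes were positive (median 0.57), but 2 were without overlap, Fbl, the methyltransferase of pre-ribosomal RNA (10.9, 12.6, 10.9 and 5.95 RPKM against 5.7, 5.86, 5.81 and 5.41 RPKM), and Utp20 (15.8, 16.3, 14.8 and 9.83 RPKM against 9.66, 8.23, 8.55 and 7.73 RPKM). All 23 sterol synthesis genes were positive (median 0.71) with Idi1 alone without overlap (43, 41.2, 33.1 and 20.3 RPKM against 12.5, 19.9, 15 and 20.2 RPKM). With 3 libraries against 5 the counts were 24 of 25 and 22 of 23, so knockout 4 decided them. That split gave 3174 of all 13609 kept genes higher, and the main split 9.99% of them. After median-of-ratios scaling 0 members of the ribosome biogenesis list and 0 of the sterol synthesis list were without overlap.

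Of the serine and Atf4 list 4 of 15 members were higher without overlap, led by the mitochondrial one-carbon enzymes Mthfd2 (50, 32, 30.7 and 8.7 RPKM against 6.03, 6.03, 7.39 and 4.09 RPKM) and Shmt2 (106, 91.6, 91.4 and 61.5 RPKM against 46.7, 48, 49 and 45 RPKM). Centred within genotype with the changed sets, 1 member was higher and 1 lower. Of 14 p53 target genes 3 were higher without overlap, among them Plk2 (102, 90.7, 85.1 and 58.9 RPKM against 48.2, 48.8, 26.1 and 34.3 RPKM) and the apoptosis gene Bax (337, 380, 377 and 299 RPKM against 244, 297, 248 and 244 RPKM), and 1 was after median-of-ratios scaling. Lysosome genes went the other way: 25 of 28 were negative (median -0.35) and 8 were lower without overlap. Without knockout 4, 19 were lower without overlap. The lysosomal membrane proteins Lamp1 (614, 574, 617 and 887 RPKM against 1039, 934, 989 and 1116 RPKM) and Lamp2 (165, 192, 180 and 274 RPKM against 319, 287, 293 and 333 RPKM) and the protease Ctsb (227, 276, 245 and 357 RPKM against 418, 426, 414 and 388 RPKM) differed by 1.53-fold, 1.54-fold and 1.51-fold on the log2(RPKM + 1) scale. Among 19 matrix genes Sparc (76.7, 97.7, 94.2 and 137 RPKM against 229, 146, 322 and 318 RPKM) and Timp3 (70.9, 63, 64.1 and 104 RPKM against 114, 146, 110 and 135 RPKM) were lower and Lama1 (5.52, 4.09, 4.83 and 3.97 RPKM against 2, 3.75, 1.11 and 2.62 RPKM) higher without overlap. Interferon and class I antigen presentation genes (13 kept) and the 10 genes of the mitochondrial genome had none without overlap and medians of -0.01 and 0.02.

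Outside the lists, the largest differences without overlap belonged to further genes of dividing cells. Fam64a measured 110, 103, 86.3 and 25.6 RPKM in the higher-Mcm libraries and 13.2, 18.4, 1.67 and 7.71 RPKM in the lower-Mcm libraries, Cdca2, a regulator of protein phosphatase 1 on mitotic chromosomes, 38.4, 32.7, 28.4 and 9.65 RPKM against 3.9, 4.83, 0.302 and 2.05 RPKM, Pbk, a mitotic kinase, 72.5, 74, 60.6 and 20.3 RPKM against 11.6, 11.5, 0.793 and 6.93 RPKM, and Cdca3, 115, 98.4, 93.8 and 37.1 RPKM against 18.6, 19.9, 2.31 and 14.6 RPKM. In the other direction the largest differences outside the lists ran from -2.34 (Abhd3) to -1.86 (Enpp2) among the genes named here. Abhd3, a phospholipase, measured 23.6, 25, 23.9 and 94.3 RPKM in the higher-Mcm libraries and 160, 136, 203 and 221 RPKM in the lower-Mcm libraries. Ndrg2, a protein abundant in astrocytes, measured 203, 202, 343 and 710 RPKM in the higher-Mcm libraries and 933, 970, 1526 and 1322 RPKM in the lower-Mcm libraries, Enpp2, which makes the signalling lipid lysophosphatidic acid, 37.8, 27.9, 37.3 and 81.2 RPKM against 168, 107, 176 and 188 RPKM, and Emp2, a membrane protein, 13.7, 16.6, 11.5 and 30.1 RPKM against 40.5, 45.1, 150 and 76.6 RPKM.

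Genes whose order over the 8 libraries was most like that of the score had rho of 1 or -1. Prim1, the catalytic subunit of primase, measured 47.9, 40.8, 37.1 and 12.6 RPKM in the higher-Mcm libraries and 10.8, 8.24, 7.24 and 6.63 RPKM in the lower-Mcm libraries. The recombination gene Brca2 (6.86, 5.73, 5.47 and 2.71 RPKM against 2.65, 2.53, 2.12 and 1.81 RPKM), the clamp unloader Atad5 (15.9, 12.1, 11.9 and 4.47 RPKM against 4.27, 3.76, 3.41 and 2.72 RPKM) and the kinase Pask (7.57, 6.23, 5.92 and 2.74 RPKM against 2.08, 1.92, 1.82 and 1.71 RPKM) followed the score in all 8, as did Mrpl28, a mitochondrial ribosomal protein, over a narrow range (154, 150, 143 and 130 RPKM against 126, 124, 121 and 118 RPKM). Hsdl2, a peroxisomal enzyme, ran in the exact reverse order (84.1, 92.1, 98.1 and 179 RPKM against 195, 197, 213 and 214 RPKM), as did Fam210b (2.62, 2.95, 3.97 and 6.13 RPKM against 7.21, 7.3, 8.9 and 9.22 RPKM). Pink1, the mitochondrial quality control kinase, had rho of -0.976 (86.9, 93.5, 103 and 146 RPKM against 168, 175, 216 and 208 RPKM). The points share libraries and a score whose 3 tiers set most of the order, so these correlations over n = 8 describe the ranking.

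The ranking did not use genotype, so it could be tested against it. The higher-Mcm set held 3 knockout and 1 wild-type library, and the lower-Mcm set 1 and 3. The Mcm score was 4.95 ± 1.17 (SD, n = 4) in knockout and 4 ± 1.55 (SD, n = 4) in wild-type libraries. The difference of 0.953 was smaller than the spread within either genotype, with p = 0.343 in a two-sided exact permutation test over 70 arrangements, whose smallest possible p is 0.0286. Both genotypes held libraries near 6 and near 4 or below. Leaving out wild type 2, the single wild-type library above 4, raised the difference to 1.70 (exact permutation p = 0.114). An Egfl7 comparison in these 8 libraries therefore compares groups that hold unequal numbers of high and low scores.

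The 12 first-round libraries took no part in the ranking and were used to test whether genes move with the Mcm score elsewhere. A slope of log2(RPKM + 1) on the score was fitted with limma across 13645 genes, with a mean for each of the 4 groups of 3, and p-values were adjusted over all genes by the Benjamini-Hochberg method. At an adjusted p under 0.05, 309 genes (2.26%) rose with the score and 139 (1.02%) fell (395 and 94 after median-of-ratios scaling). These calls rested on 1 library: first-round hippocampal wild type 1 had the lowest score of its round, 4.60 against 5.76 to 6.25 in the other 5 hippocampal libraries. Without it limma, the single tool run on these values, called 0 genes, with 883 at an unadjusted p under 0.05 where the full set had 2620.

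DNA replication and mitosis genes were among the rising calls, most of which lay outside both lists. Of 45 DNA replication genes 29 rose and 0 fell (39 and 0 at an unadjusted p under 0.05), with a median slope of 0.70 against -0.04 over all genes tested. Of 48 mitosis genes 31 rose and 0 fell (44 and 0 unadjusted; median slope 0.70). Without hippocampal wild type 1 the median slopes were 0.85 and 0.76, and 45 of 45 and 46 of 48 slopes were positive. The smallest p-values belonged to Chaf1b, a subunit of chromatin assembly factor 1 (slope 1.18 ± 0.092 SE, limma adjusted p = 0.000449), the checkpoint kinase Chek1 (1.16 ± 0.092, 0.000449) and the recombination protein Rad51ap1 (1.24 ± 0.101, 0.000449). They were followed by Mcm10 (1.18 ± 0.101, adjusted p = 0.000488) and the origin-licensing protein Cdc6 (1.26 ± 0.109, 0.000488). Without hippocampal wild type 1 the slopes of these 5 genes were 0.81 to 1.23, with limma adjusted p of 0.655 to 0.731. Nucleotide enzymes rose in 4 of 22 members, Rrm2 among them (1.37 ± 0.174, limma adjusted p = 0.00276), and regulators of the G1 to S step in 9 of 20, Ccnd1 among them (1.09 ± 0.169, 0.00723).

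The falling calls were fewer and took in glial genes. Mt2 had the smallest p of these (slope -1.08 ± 0.134 SE, limma adjusted p = 0.00231), followed by the deacetylase Sirt2, which is abundant in myelin (-1.10 ± 0.157, 0.00428), Grtp1 (-0.98 ± 0.152, 0.00702), the fatty acid oxidation enzyme Ech1 (-0.97 ± 0.154, 0.00799) and Drc1, a component of motile cilia (-1.23 ± 0.197, 0.00842). The last of these had low values, 0.409 to 5.23 RPKM over the 12 libraries. Of 33 quiescent stem cell genes 4 fell, Gja1 (-0.98 ± 0.187, limma adjusted p = 0.0202), Mt2, Cst3 and Ntsr2, and 28 had a negative slope. Apoe (-1.26 ± 0.745, 0.402) and Aqp4 (-1.18 ± 0.635, 0.354) did not pass. Without hippocampal wild type 1 only 22 of the 33 stem cell slopes were negative (median -0.47).

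Ribosomal protein genes and lysosome genes had no call in the fit. For the ribosomal list limma called 0 of 35 (0 positive and 3 negative at an unadjusted p under 0.05), and the median slope was -0.07, or 0.46 without hippocampal wild type 1. For the lysosome list it called 0 of 28 (1 positive and 5 negative unadjusted), with a median slope of -0.18. Ccnd2, which had the tiers of Ccnd1 in the second round, had a slope of 0.01 ± 0.13 (limma adjusted p = 0.983).

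Set side by side, 1308 of the 1360 genes higher without overlap in the second round could be fitted in the first. Of these 159 rose (12.2% of them and 51.5% of all rising genes) and 0 fell, with 351 positive and 31 negative at an unadjusted p under 0.05. Of 606 fitted genes from the lower group 25 fell (4.13% of them and 18% of all falling genes) and 0 rose, with 164 negative and 5 positive unadjusted. Among all 12867 genes present in both, 1127 were positive and 1395 negative unadjusted. Slopes were positive for 66.6% of the first group, 14.7% of the second and 42.9% of the 12867 genes present in both, and without hippocampal wild type 1 for 69.6%, 33.3% and 49.8%. No library is shared between the fit and the ranking. Egfl7 went against 2 labels of the fit, with 2.86 RPKM in the SVZ library labelled knockout 2 and no value in the one labelled wild type 3, and the fit keeps both under their labels.

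**Figure D5:**
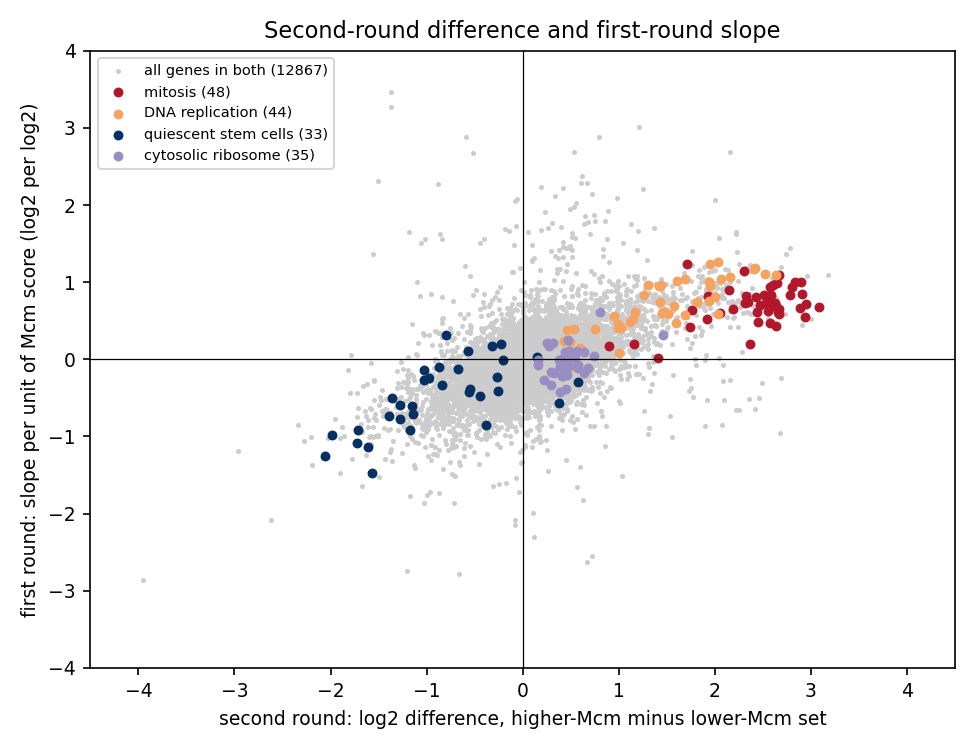
Each point is 1 of the 12867 genes kept in both rounds: on the x axis the second-round difference of mean log2(RPKM + 1), higher-Mcm minus lower-Mcm set, and on the y axis its slope on the Mcm score over the 12 first-round libraries. Mitosis and DNA replication genes lie to the upper right, quiescent stem cell genes mostly to the lower left, and ribosomal protein genes to the right of 0 with slopes around 0.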

How the data were processed

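RNA from neurospheres was sequenced in 20 libraries, and the 8 second-round hippocampal ones were ranked here. Per the labels' protocols, ribosomal RNA was removed from total RNA before stranded library preparation, exon capture and sequencing. The submitters' processing notes name FastQC 0.11.5, DESeq2 and the builds mm10 and GRCm38. The aligner was not given in the sources used here, nor was the read counter. RPKM values per gene were what the authors deposited, for 36724 genes, written with decimal commas; an empty cell was read as 0. These values are not counts, so no count test was run.

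Values were taken as log2(RPKM + 1). Genes needed at least 1 RPKM in 4 or more libraries, and the 6 Mcm genes were left out. Mapped reads were inferred from the step size of the values of short RNA genes, of which 97.4 to 100% came out as whole reads within 0.05 reads. Precision is limited by this depth and by group sizes of 3 or 4. No 2 libraries held identical values, and replicates carry separate mouse numbers in the labels.

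The members and the gene lists were chosen with earlier results of these data known. Genes named are the 6 Mcm genes, up to 3 genes per list and direction with the largest difference without overlap, genes outside the lists by the same measure (at least 5 RPKM on average in the set where they are higher), those with the strongest Spearman rho, up to 5 per direction with the smallest p in the slope fit, and Egfl7; predicted genes and small RNA genes were left out, exceptions are stated, and the text names fewer genes than the rule allows. Slopes were fitted with limma 3.58.1 in R 4.3.3 (trend and robust settings, Benjamini-Hochberg adjustment), other values with Python 3.11.15, numpy 2.4.6 and pandas 2.3.3. On simulated data for the 13645 genes of the slope fit, 69 of 100 genes with a slope of 1 and 15 of 100 with a slope of 0.5 were called, with 5 false calls. The simulated noise was independent between genes and libraries, so the false calls do not cover a deviation shared by many genes in 1 library. Alternatives covered the pseudocount, filters, scaling, the ranking list, genotype, weights, the replicate block and each library left out.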

Additional observations from a re-analysis of the deposited data

Results flagged for a closer look

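In groups of 4, a highest or lowest sample was singled out when its gap to the nearest other passed Dixon's 95% critical value as a share of the whole range. This held for 22 of 277 group values tested, where chance flags about 1 in 20 groups. Many of these genes were named for following or opposing the score, Mcm7 is part of it, and wild type 2 is the only wild-type library with a high score, so its standing apart follows from that choice and the count is not read against chance. All values here are log2(RPKM + 1), or its mean over a list, with the nearest other library of the same genotype in brackets.

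Wild type 2, the 1 wild-type library of the higher-Mcm set, gave most of them. It was the highest wild-type library for the nucleotide synthesis list at 5.65 (4.26), Mcm7 at 5.61 (4.04), E2f8 at 3.37 (1.23), Prim1 at 5.61 (3.21), Atad5 at 4.08 (2.25), Rad51ap1 at 4.18 (1.39) and Pask at 3.10 (1.55). The same held for Fbl at 3.58 (2.78), Utp20 at 4.07 (3.26), Rplp1 at 9.5 (8.85) and Shmt2 at 6.75 (5.64). It was the lowest for the astrocyte list at 5.72 (6.89), Aqp4 at 4.21 (7.87), Rbl2 at 4.36 (4.97) and Ctsb at 7.83 (8.60). Hsdl2 at 6.41 (7.63), Rab33b at 4.63 (5.24) and Bckdha at 6.25 (7.04) were lowest there too.

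Wild type 5 was lowest for the endothelial list at 0.397 (0.516), and wild type 3 was highest for the ependymal list at 1.14 (0.945). Among knockout libraries, knockout 8 was lowest for Fosl1 at 0.877 (1.33) and highest for Pdk1, a kinase that holds back pyruvate dehydrogenase, at 4.53 (3.66).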

How the results depend on the processing

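Of the alternative values of the main counts and of the score difference, 82 counted as the same. For a count this meant staying within 1.5 times the main count. For the score difference it meant keeping its direction with an exact permutation p above 0.05. The 36 that moved were all gene counts and are among the values that follow, and the cause was not tested. Median-of-ratios scaling gave 959 genes lower without overlap. Ranking by the mitosis list gave 1001 genes with rho of at least 0.9. Centring within genotype and ranking anew, which exchanged knockout 4 for wild type 6 in the higher set, gave 2117 higher, 1100 lower and 1286 with rho of at least 0.9. The 3 highest libraries against the other 5 gave 3174 and 1835. Leaving out 1 library gave 1435 to 3467 higher genes and 674 to 2034 lower genes. Counts with rho of at least 0.9 were then 415 to 923, and with rho of -0.9 or less 252 to 562. These ranges include counts that did not move. The knockout minus wild type score difference was 0.601 to 1.70 and counted as the same. The extremes came without wild type 2, knockout 4, knockout 7 or knockout 8. For the first-round slope, rising and falling genes numbered 194 and 46 with a mitosis score, 678 and 510 with region means only, and 133 and 43 in hippocampal libraries alone. limma called 0 and 0 in SVZ libraries alone (1309 genes at an unadjusted p under 0.05), 0 and 0 with array weights, whose estimation did not converge (847), and 0 and 0 with the replicate block (1176); no filter gave 342 falling. Leaving out 1 library gave 0 to 330 rising and 0 to 192 falling genes. The rising count moved by over 1.5 times without hippocampal wild type 1, 2 (171) or 3 (190), and the falling count also without hippocampal knockout 1 (74) or SVZ wild type 2 (70). Same-numbered first-round libraries did not deviate together, and 1 of 12 correlated best with its own number. With groups of 3 libraries these correlations cannot decide whether the replicate numbers pair the samples. In the second round the genotypes share no number and no paired analysis was possible. Of single-gene values, 1747 counted as the same, 45 slopes no longer passed at a limma adjusted p under 0.05, and 8 second-round differences moved. A difference counted as the same when it changed by less than the larger within-set SD, whether or not the gene stayed without overlap. Slopes were checked only for the genes with the smallest p, up to 5 per direction, and none of these reversed. Ccnd2, outside that check, went from a slope of 0.008 to -0.332 without first-round hippocampal wild type 1. No difference of a named gene without overlap reversed. RPKM near 1 rest on few reads, so low genes such as Fosl1 and Drc1 are the least precise.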
